A study of Mus musculus with 24 samples.

Results

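Pomalidomide added to filanesib plus dexamethasone was examined in 6 of the 24 tumour arrays of the series, chosen by their sample titles alone. The triple combination, 3 arrays from plasmacytomas given filanesib at 10 mg/kg, pomalidomide at 8 mg/kg and dexamethasone at 0.5 mg/kg, was set against filanesib plus dexamethasone, 3 arrays from plasmacytomas given those 2 drugs at the same doses. All drugs were injected into the peritoneum for 2 days. The tumours of every group grew under the skin of CB17-SCID mice from the human multiple myeloma line MM.1S, injected in Matrigel. These mice lack working T and B cells and keep natural killer cells and macrophages, so the comparison concerns 1 tumour line in an immunodeficient host. The age and sex of the mice are not in the labels. Nor do the labels state that the 3 arrays of a group are 3 animals, and the p-values therefore rest on a spread between samples that may be technical. The series also held filanesib plus pomalidomide, pomalidomide plus dexamethasone, each of the 3 drugs alone, and control tumours whose mice received phosphate-buffered saline, with 3 arrays in each of the 8 groups. Arrays are numbered as in their titles.

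Pomalidomide binds cereblon, the substrate receptor of a ubiquitin ligase, and the drug-bound ligase marks the lymphoid transcription factors IKZF1 and IKZF3 for degradation. In human myeloma cells the loss of these factors is known to lower IRF4, on which plasma cells depend, and to release interferon-stimulated genes from repression. Mouse cereblon does not direct these factors to degradation in response to the drug. Filanesib blocks KIF11, the kinesin that separates spindle poles, and holds cells in mitosis, and dexamethasone acts through the glucocorticoid receptor to kill lymphoid cells. The comparison asks what pomalidomide adds where the other 2 drugs are already present.

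The values were log2 levels per probe set of an Affymetrix array, made by the authors with RMA. The organism in the labels is the mouse, but the genes of the probe table are human. A level below is on this log2 scale, and a difference is the mean of the triple combination minus the mean of filanesib plus dexamethasone, with the standard error (SE) of the limma model. Across probe sets the 6 arrays correlated at 0.982 to 0.99 within groups and at 0.981 to 0.989 between the groups. Their residual SD was 0.127 to 0.168, against 0.129 to 0.18 in 15 of the other arrays. The 3 arrays of pomalidomide alone stood apart at 0.193 to 0.288. They are in neither compared group, but enter through the estimate of the spread, the joint normalisation and the choice of a gene's probe set. The median SE of a difference was 0.14. All 18 measured genes of the plasma cell and myeloma list lay above the array median. The tumours are mixtures of cells, so fewer cells of a type and less RNA per cell cannot be told apart.

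Adding pomalidomide raised IFI44, XAF1 and DOCK4 and lowered TOP6BL. These were the only genes of 14884 past an adjusted p of 0.05 (limma, Benjamini-Hochberg), 3 higher (0.0202% of genes) and 1 lower (0.00672%). An unadjusted p under 0.05 was reached by 942 genes, 463 higher and 479 lower. The levels of the groups did not overlap in 919 genes that were higher in the triple combination (6.17%) and in 1096 that were lower (7.36%). The median difference of all genes was -0.01. The count of 4 depended on single arrays. It was 0 without replicate 1 of the triple combination and 0 without replicate 1 of filanesib plus dexamethasone, with 775 and 1048 genes under an unadjusted p of 0.05. It was 1, IFI44, without replicate 2 or without replicate 3 of filanesib plus dexamethasone. It was 10 without replicate 3 of the triple combination, of dexamethasone or of pomalidomide, 9 without replicate 2 of filanesib plus pomalidomide and 8 without replicate 1 of pomalidomide plus dexamethasone. With array weights it was 134, with every probe set tested it was 0, and without the arrays 1 and 3 of pomalidomide alone it was 12.

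IFI44, an interferon-induced cytoplasmic protein (probe set 16666509), was at 5.92, 5.23 and 4.99 in the triple combination, against 3.39, 3.80 and 3.80 in filanesib plus dexamethasone. Every array of the triple combination lay more than 1 log2 unit above the other group. The difference was 1.72 ± 0.25 (SE), or 3.29-fold, with a limma adjusted p of 0.00841. XAF1, which interferon induces and which counters the caspase inhibitor XIAP (probe set 16830202), was at 8.57, 7.99 and 7.93 in the triple combination and 6.76, 6.61 and 6.61 in filanesib plus dexamethasone. The groups stood well apart, and replicate 1 of the triple combination was the highest of its group, as for IFI44. XAF1 rose by 1.5 ± 0.23, or 2.83-fold (limma adjusted p = 0.0112). DOCK4, an exchange factor that activates small GTPases of the Rap and Rac families (probe set 17061881), was at 8.36, 7.90 and 8.10 in the triple combination, against 6.91, 6.78 and 7.05 in filanesib plus dexamethasone. DOCK4 rose by 1.20 ± 0.20, or 2.30-fold (limma adjusted p = 0.0188). TOP6BL, known in the mouse as a partner of SPO11 in making meiotic DNA breaks (probe set 16727570), was at 6.49, 6.52 and 6.59 in the triple combination and 7.22, 7.25 and 7.32 in filanesib plus dexamethasone. Its arrays were tightly grouped in both, with an SD of 0.05 in each. TOP6BL fell by 0.73 ± 0.12 on the log2 scale, or 1.65-fold (limma adjusted p = 0.0237). The 4 calls were lost without replicate 1 of the triple combination (limma adjusted p from 0.174 to 0.252) and without replicate 1 of filanesib plus dexamethasone (0.0841 to 0.107). The call of TOP6BL was also lost without replicate 2 of the triple combination (0.124) and in a fit to the 6 arrays alone (0.059).

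**Figure D1:**
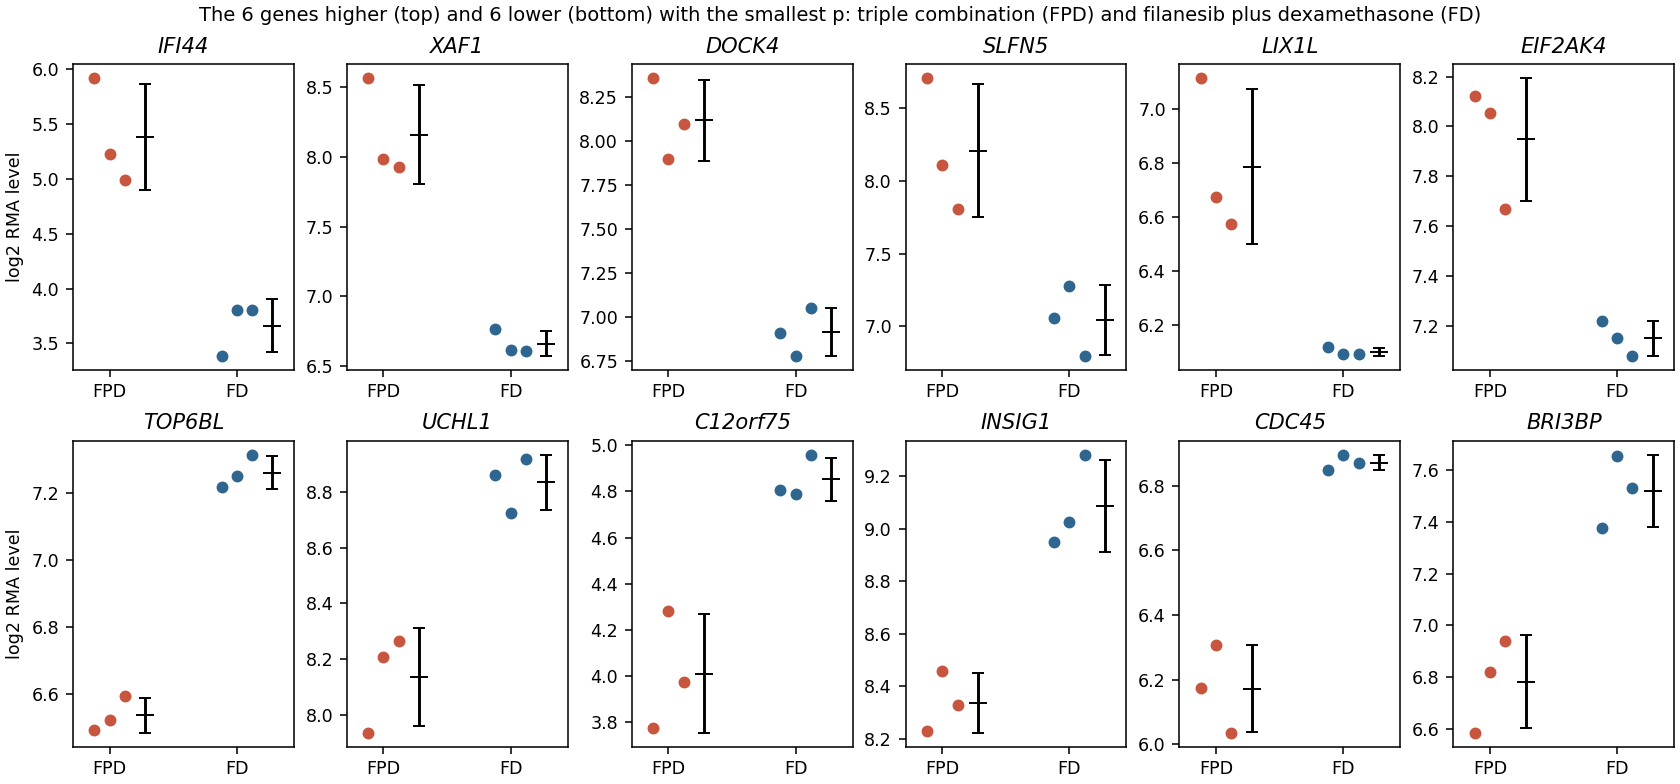
Log2 RMA levels of the 6 genes higher and the 6 genes lower with the smallest p, in the 3 arrays of the triple combination (FPD, red) and the 3 of filanesib plus dexamethasone (FD, blue), each group in the order of its replicate numbers, with the mean and SD drawn beside the points and a separate axis range for each gene. The groups do not overlap in any of the 12 genes, and the range for IFI44 is 4.99 to 5.92 in FPD and 3.39 to 3.80 in FD.

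The next genes in order of p missed the threshold, and their values are given without a call. SLFN5, a member of the interferon-inducible Schlafen family, was at 8.71, 8.11 and 7.81 in the triple combination, against 7.06, 7.28 and 6.80 in filanesib plus dexamethasone (difference 1.16 ± 0.22, limma adjusted p = 0.0549). EIF2AK4, the kinase GCN2 that slows translation when amino acids run short, was at 8.12, 8.06 and 7.67 in the triple combination and 7.22, 7.15 and 7.08 in filanesib plus dexamethasone (0.80 ± 0.16, adjusted p = 0.0793). LIX1L had a difference of 0.69 ± 0.14 (adjusted p = 0.0791). In the plot of the 12 genes these 3 also show the triple combination above the other group in every array. On the lower side, UCHL1, a deubiquitinating enzyme abundant in neurons, was at 7.93, 8.21 and 8.26 in the triple combination, against 8.86, 8.73 and 8.92 in filanesib plus dexamethasone (-0.70 ± 0.13, adjusted p = 0.0547). C12orf75 had a difference of -0.84 ± 0.16 (adjusted p = 0.0675) and BRI3BP one of -0.74 ± 0.15 (adjusted p = 0.0791). INSIG1 and CDC45, the remaining pair, are described with their pathways. SLFN5 passed in 10 and UCHL1 in 13 of the 36 alternative analyses.

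Marker genes of other cell types were compared in the same arrays. The probe table holds human genes, whereas host cells in these tumours are those of the mouse. How far the probe sets read mouse RNA was not tested. The summed linear level (2 to the power of the log2 level) of the 8 measured macrophage and monocyte markers was 922 to 1200 in the triple combination and 568 to 765 in filanesib plus dexamethasone. CD68 was the 1 marker of the 8 whose groups did not overlap, and without it the remaining 7 summed to 85.8 to 99.6 in the triple combination and 83.7 to 108 in filanesib plus dexamethasone. Among those 7, the scavenger receptor CD163 averaged 2.92 and 3.05, the lipopolysaccharide co-receptor CD14 3.17 and 3.09, and lysozyme, LYZ, 2.63 and 2.69 in the triple combination and filanesib plus dexamethasone. The 3 are near the bottom of the scale, which runs from 1.26 to 13.6, and the value table holds no detection calls. Of the 8 markers 5 lay above the array median, CD68 among them. CD163, CD14 and LYZ lay below it, so these 3 do not stand for the list. Over the 8 markers the median difference was -0.02, with 3 positive and 5 negative. Sums were lower in the triple combination for the 9 endothelial markers (177 to 230, against 233 to 254 in filanesib plus dexamethasone), the 8 T and natural killer cell markers (250 to 265, against 268 to 281) and the 6 markers of other B cells (111 to 129, against 133 to 153). These sums are on the linear scale, where the brightest genes weigh most. Gene by gene, 0 of the T and natural killer cell markers stood without overlap (median difference -0.01), 1 of the other B cell markers was lower (CR2, -0.87), and of the endothelial markers 1 was lower and 1 was higher (median difference -0.06). Over all genes 6.17% stood higher and 7.36% lower without overlap, so single genes in lists this short say little. Both skeletal muscle markers measured summed to 70.2 to 130 in the triple combination and 67.7 to 70.1 in filanesib plus dexamethasone. Their differences were 0.01 and 0.57, and 1 of the 2 was higher without overlap. No marker of these lists passed the test. The part of other cell types in the results below was not tested.

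Genes induced by interferon were higher as a group, with 2 of 30 measured members past the threshold, IFI44 and XAF1. Of the 30, 28 had a positive difference, and 20 were higher in every array of the triple combination than in any array of filanesib plus dexamethasone, against 6.17% of all genes. Of all 14884 genes 7113 had a positive difference, and 0.0202% were higher past the threshold. None of the 30 lay entirely lower. The median difference was 0.50, against -0.01 for all genes, and 0.33 without replicate 1 of the triple combination. IFI44L, a relative of IFI44, was at 5.04, 4.88 and 4.26 in the triple combination and 2.89, 3.35 and 3.00 in filanesib plus dexamethasone, a difference of 1.65 ± 0.36 (limma adjusted p = 0.101). MX2, a GTPase that blocks the nuclear entry of viruses, was at 5.90, 5.07 and 5.12 in the triple combination, against 4.40, 4.12 and 3.57 in filanesib plus dexamethasone (1.34 ± 0.30, adjusted p = 0.101). The groups of both genes stood apart, but their SE was wider than that of XAF1.

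Sensors of nucleic acid and regulators of the interferon response had a median difference of 0.21 over 19 measured members, with 16 positive, 8 higher without overlap, 0 lower without overlap and 0 past the threshold, where 8 had an unadjusted p under 0.05. Of all genes 6.17% were higher without overlap, 7113 of 14884 were positive, and 463 were higher at an unadjusted p under 0.05. The median was 0.45 without replicate 3 of the triple combination and 0.43 with array weights. IFIH1, which encodes the long double-stranded RNA sensor MDA5, was at 7.75, 7.54 and 7.53 in the triple combination and 6.98, 7.08 and 7.06 in filanesib plus dexamethasone (0.57 ± 0.14, limma adjusted p = 0.139). EIF2AK2, the RNA-activated kinase PKR, differed by 0.56 ± 0.16 (adjusted p = 0.308), DHX58, which encodes the regulator LGP2, by 0.49 ± 0.15 (adjusted p = 0.356) and RIGI, the sensor of short RNA with a triphosphate end, by 0.82 ± 0.26 (adjusted p = 0.384). Each of the 4 was higher in every array of the triple combination.

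Chemokines, adhesion molecules and inflammatory genes did not move as a group, with a median of 0.09 over 16 measured members, 4 higher and 1 lower without overlap (6.17% and 7.36% of all genes), and 0 past the threshold (limma, 2 higher and 0 lower at an unadjusted p under 0.05). Of all 14884 genes 463 were higher and 479 lower at that unadjusted p. The median of the list was 0.03 without replicate 2 of the triple combination and 0.14 without replicate 2 of filanesib plus dexamethasone. CXCL10, an interferon-induced chemokine that draws activated T cells, was at 8.00, 8.01 and 6.83 in the triple combination and 5.66, 6.06 and 5.89 in filanesib plus dexamethasone. Replicate 3 of the triple combination was more than 1 log2 unit below the other 2 arrays of its group and still above the other group. The difference of 1.74 ± 0.45 did not pass (adjusted p = 0.197). The related CXCL9 was at 4.10, 2.83 and 2.84 in the triple combination, against 2.40, 2.83 and 2.58 in filanesib plus dexamethasone, so its difference of 0.65 ± 0.29 rested on replicate 1 and was 0.23 without it. ICAM1, an adhesion molecule for leukocytes, differed by 0.46 ± 0.23 (adjusted p = 0.817) and the cytokine TNF by 0.27 ± 0.13 (adjusted p = 0.802), and by 0.16 without replicate 1 of filanesib plus dexamethasone. Of antigen presentation only 4 listed genes were measured, with a median of -0.14. The peptide-trimming enzymes ERAP1 and ERAP2 had differences of -0.24 and -0.22 and beta-2 microglobulin, B2M, one of 0.15. The value of ERAP2 was -0.10 without replicate 1 of the triple combination, and that of B2M 0.09 without replicate 2 of it and 0.08 as the mean of its probe sets. None of these passed.

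MILR1, an inhibitory immunoglobulin-like receptor known from mast cells, had the largest difference among the named genes, 1.90 ± 0.39, or 3.72-fold. It was at 6.94, 6.75 and 5.89 in the triple combination, against 4.49, 4.81 and 4.59 in filanesib plus dexamethasone. The groups were far apart, but the 3 arrays of the triple combination spread over an SD of 0.56, and the gene did not pass (limma adjusted p = 0.080). CD68, a glycoprotein of lysosomes that serves as a marker of macrophages, was at 10.12, 9.83 and 9.70 in the triple combination and 8.92, 9.36 and 9.03 in filanesib plus dexamethasone (0.78 ± 0.18, adjusted p = 0.11). The secreted lysosomal factor progranulin, GRN, followed a like order of arrays, at 10.34, 9.81 and 9.73 in the triple combination and 9.02, 9.46 and 9.14 in filanesib plus dexamethasone (0.75 ± 0.22, adjusted p = 0.328). In both genes replicate 1 was highest in the triple combination and replicate 2 was highest in filanesib plus dexamethasone. Lysosomal genes as a group did not share the shift: the median of 16 measured members was -0.04, with 2 higher and 2 lower without overlap (6.17% and 7.36% of all genes). The lower 2 were CTSA, which protects other lysosomal enzymes (-0.36 ± 0.11), and the peptidase TPP1 (-0.29 ± 0.13). The sign of the list's median varied with the array omitted, between -0.08 without replicate 1 and 0.03 without replicate 2 of filanesib plus dexamethasone.

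**Figure D2:**
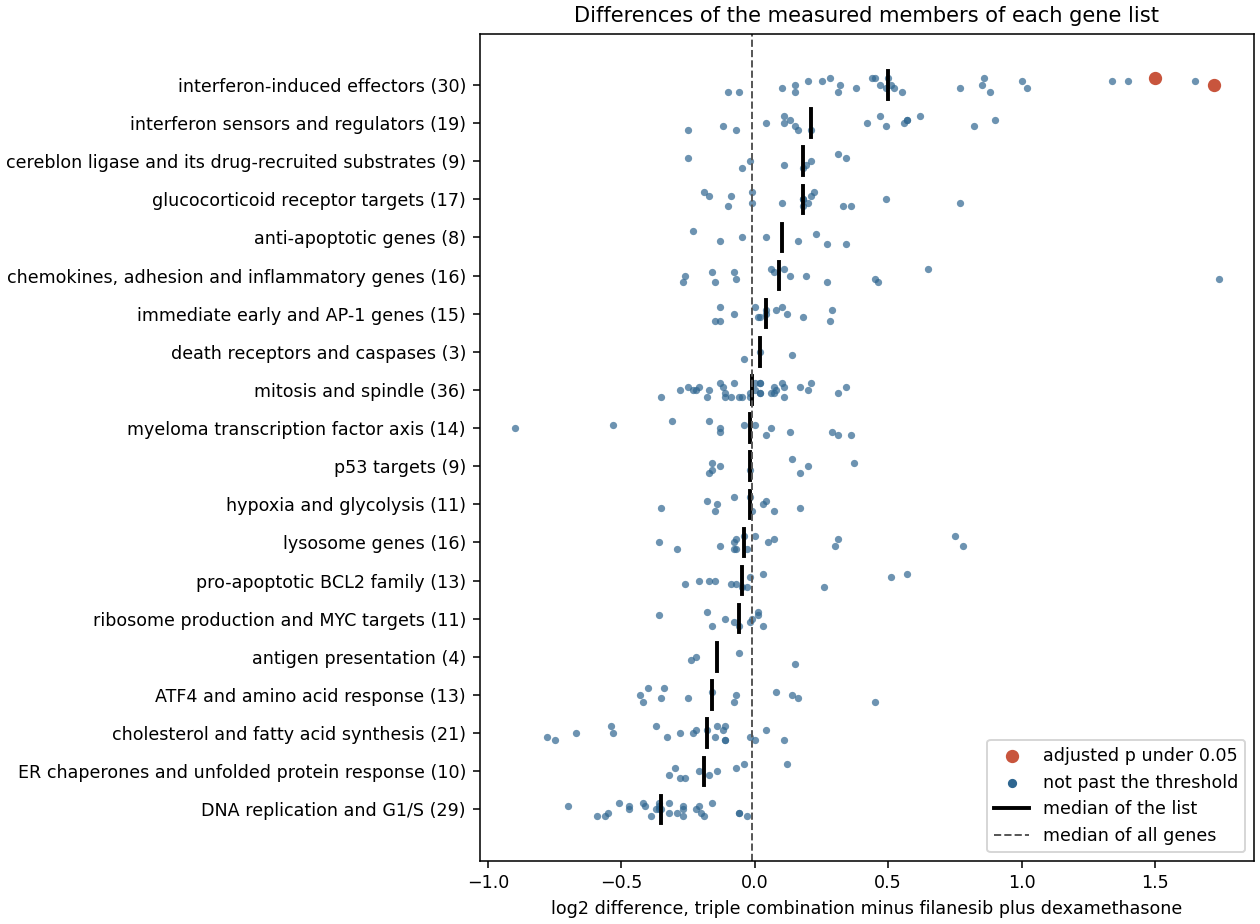
Log2 difference, triple combination minus filanesib plus dexamethasone, for each measured member (points) of 20 gene lists, ordered by the median of the list (black bar), with the number of members in brackets and the median of all genes as a dashed line. The interferon-induced effectors lie furthest to the right with a median of 0.50 and hold both coloured points past the threshold, and all 29 genes of DNA replication and G1/S lie left of 0.

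The replication and G1/S genes were lower throughout. All 29 measured members had a negative difference, from -0.70 to -0.03, and 19 were lower in every array of the triple combination, against 7.36% of all genes. None lay entirely higher, and the median was -0.35. None passed the limma threshold, where 15 had an unadjusted p under 0.05. Of all 14884 genes 7771 were negative, and 479 were lower at an unadjusted p under 0.05. CDC45, part of the replicative helicase, was at 6.17, 6.31 and 6.04 in the triple combination and 6.85, 6.90 and 6.87 in filanesib plus dexamethasone (-0.70 ± 0.14, or 1.62-fold lower, adjusted p = 0.0791). UHRF1, which guides maintenance DNA methylation behind the fork, was at 6.98, 7.21 and 7.20 in the triple combination and 7.41, 7.59 and 7.60 in filanesib plus dexamethasone (-0.41 ± 0.11, adjusted p = 0.197). MCM10, needed to activate the helicase, differed by -0.55 ± 0.15 (adjusted p = 0.222) and thymidylate synthase, TYMS, by -0.47 ± 0.16 (adjusted p = 0.467). The plot of the gene lists shows this list entirely left of 0, whereas the points of the mitotic list lie on both sides.

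Mitosis and spindle genes, which serve the stage that filanesib arrests, showed no common shift. Of 36 measured members 18 were positive, 2 were higher and 1 was lower without overlap (6.17% and 7.36% of all genes), and the median was -0.01. It varied between -0.09 and 0.06 when replicates 2 and 1 of the triple combination were omitted. None passed, and none had an unadjusted p under 0.05. KIF11, the target of filanesib, had a difference of -0.09 ± 0.20, with a 95% interval from -0.49 to 0.32. The anaphase activator CDC20 differed by 0.02, with an interval from -0.25 to 0.29, the checkpoint kinase BUB1 by 0.07, from -0.20 to 0.34, and cyclin B1, CCNB1, by -0.02, from -0.45 to 0.40. A change within these intervals was not detectable with 3 arrays per group, and the sign of each of the 4 differences turned in at least 1 omission of an array. The members with the smallest p were the checkpoint protein MAD2L1 (-0.28 ± 0.14), the centrosomal kinase NEK2 (0.34 ± 0.19), the cyclin-dependent kinase subunit CKS2 (-0.35 ± 0.23) and the F-box cyclin CCNF (-0.25 ± 0.17). MAD2L1 and CKS2 stood at -0.46 and -0.54 without replicate 2 of the triple combination, and at -0.17 and -0.23 without replicate 3 of it.

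Transcripts of cereblon and of both Ikaros factors had positive differences, none of them past the threshold. IKZF1 was at 7.74, 7.68 and 7.94 in the triple combination, against 7.49, 7.44 and 7.41 in filanesib plus dexamethasone, a difference of 0.34 ± 0.13 that did not pass (limma adjusted p = 0.574). IKZF3 was at 3.74, 3.62 and 3.27 in the triple combination and 3.37, 3.05 and 3.28 in filanesib plus dexamethasone, with overlapping groups near the array medians (0.31 ± 0.20, adjusted p = 0.929). Cereblon itself, CRBN, was at 6.89, 7.06 and 6.94 in the triple combination and 6.80, 6.69 and 6.88 in filanesib plus dexamethasone (0.18 ± 0.11, adjusted p = 0.933). ZNF692, a zinc finger protein that the drug-bound ligase also recruits, differed by -0.25 ± 0.13, and by -0.12 without replicate 2 of the triple combination. Over the 9 measured genes of the ligase and its substrates the median was 0.18, with 4 higher and 1 lower without overlap (6.17% and 7.36% of all genes). It was 0.10 without replicate 2 of filanesib plus dexamethasone and 0.12 without replicate 3 of the triple combination. The array measures transcripts, so these values say nothing of the protein that the drug degrades.

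Among transcription factors of the myeloma program the largest difference was in MYB, a factor of blood progenitors, at 4.52, 4.67 and 4.75 in the triple combination and 5.85, 5.42 and 5.37 in filanesib plus dexamethasone (-0.90 ± 0.22, limma adjusted p = 0.157). Its groups did not overlap. IRF4 was at 9.50, 9.38 and 10.14 in the triple combination, against 10.39, 10.10 and 10.11 in filanesib plus dexamethasone. Replicate 3 of the triple combination lay among the arrays of the other group, and the difference of -0.53 ± 0.23 did not pass (adjusted p = 0.699). MYC was at 10.36, 10.29 and 10.39 in the triple combination and 10.44, 10.34 and 10.25 in filanesib plus dexamethasone, with overlapping groups and a 95% interval of the difference from -0.26 to 0.26. MAF, a factor whose overexpression defines a class of myeloma that includes this line, differed by 0.36 ± 0.12 (adjusted p = 0.399) and the B-lineage factor MEF2C by 0.29 ± 0.15 (adjusted p = 0.837), and by 0.19 as the mean of its probe sets. The list of 14 measured members had a median of -0.02, with 2 higher and 2 lower without overlap (6.17% and 7.36% of all genes). The sign of the median varied between omissions of an array (-0.05 to 0.01). AMPD1, the muscle-type AMP deaminase, was at 6.27, 6.50 and 7.02 in the triple combination and 7.65, 7.49 and 7.42 in filanesib plus dexamethasone (-0.92 ± 0.30, adjusted p = 0.384).

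Of the pro-apoptotic BCL2 family, 2 BH3-only members were higher without overlap and 0 of 13 passed, with 2 higher and 0 lower at an unadjusted p under 0.05 in limma. Of all genes 6.17% were higher and 7.36% were lower without overlap, and 463 of 14884 were higher at that unadjusted p. BMF was at 7.33, 7.13 and 6.91 in the triple combination and 6.53, 6.72 and 6.6 in filanesib plus dexamethasone (0.51 ± 0.14, adjusted p = 0.284). BCL2L11, which encodes BIM, was at 7.59, 7.51 and 7.58 in the triple combination, against 7.27, 6.92 and 6.79 in filanesib plus dexamethasone (0.57 ± 0.21, adjusted p = 0.548). In BCL2L11 the triple combination was the tighter group, with an SD of 0.04 against 0.25. BID, which links death receptors to mitochondria, differed by -0.26 and was lower without overlap, and the mitophagy receptor BNIP3L differed by 0.26. The median of the 13 was -0.05, and it varied between -0.07 without replicate 3 of filanesib plus dexamethasone and -0.01 without replicate 3 of the triple combination. Among 8 measured anti-apoptotic genes the median was 0.10 (0.07 without replicate 2 of filanesib plus dexamethasone), with 1 higher without overlap, the caspase-8 inhibitor CFLAR (0.34, adjusted p = 0.797). BCL2 differed by 0.27, the ubiquitin ligase BIRC2 by 0.23 and MCL1 by 0.16 ± 0.12, none of which passed. BIRC2 was at 0.10 without replicate 2 of filanesib plus dexamethasone. Of 9 measured p53 targets 2 were higher and 1 was lower without overlap (6.17% and 7.36% of all genes). TP53INP1 stood at 0.37, the kinase PLK3 at -0.16, cyclin G1, CCNG1, at 0.20 and the stress protein SESN1 at 0.17. PLK3 and CCNG1 were at -0.09 and 0.12 without replicate 2 of the triple combination, and SESN1 at 0.11 with array weights. The list's median of -0.02 was 0.03 without replicate 2 of filanesib plus dexamethasone, -0.05 without replicate 2 of the triple combination, 0.06 with protein-coding genes only and -0.08 with dim genes left out. Only 3 listed death receptor and caspase genes were measured, and their differences lay between -0.04 and 0.14, with a median of 0.02.

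Genes induced through the glucocorticoid receptor were measured against a background that already held dexamethasone. Of 17 members 11 were positive, 6 were higher and 0 lower without overlap (6.17% and 7.36% of all genes), and 0 passed, where 3 had an unadjusted p under 0.05 in limma. Of all 14884 genes 7113 were positive, and 463 were higher at that unadjusted p. The median was 0.18, and 0.10 without replicate 2 of the triple combination. DDIT4, an inhibitor of mTORC1 signalling, was at 8.20, 8.70 and 8.35 in the triple combination and 7.71, 7.71 and 7.51 in filanesib plus dexamethasone (0.77 ± 0.29, adjusted p = 0.553). KLF9, a transcription factor of early hormone responses, differed by 0.49 ± 0.21, the thioredoxin inhibitor TXNIP by 0.36 ± 0.17 and the clock gene PER1 by 0.33 ± 0.18. FKBP5, which feeds back on the receptor, was at 5.70, 6.09 and 5.81 in the triple combination and 5.69, 5.51 and 5.74 in filanesib plus dexamethasone, with overlapping groups (0.22 ± 0.17, adjusted p = 0.967). Its value was 0.10 without replicate 2 of the triple combination. Of 15 immediate early and AP-1 genes 1 was higher without overlap (6.17% of all genes), the ERK phosphatase DUSP5 (0.29 ± 0.12), and the median was 0.04. It was -0.03 without replicate 2 of the triple combination and 0.11 without replicate 2 of filanesib plus dexamethasone. The early gene IER2 differed by 0.28, and by 0.12 and 0.42 without replicates 1 and 2 of filanesib plus dexamethasone.

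Lipid synthesis genes (cholesterol and fatty acids) were lower in 8 of 21 measured members without overlap and higher without overlap in none, with a median of -0.18, where 7.36% of all genes were lower and 6.17% were higher without overlap. None passed in limma, where 5 were lower at an unadjusted p under 0.05, against 479 of all 14884 genes. INSIG1, a sterol-dependent brake on SREBP processing, was at 8.23, 8.46 and 8.33 in the triple combination and 8.95, 9.03 and 9.28 in filanesib plus dexamethasone (-0.75 ± 0.15, or 1.68-fold lower, adjusted p = 0.0791). DHCR7, the last enzyme of cholesterol synthesis, was at 7.66, 7.58 and 7.55 in the triple combination, against 8.09, 8.33 and 8.38 in filanesib plus dexamethasone (-0.67 ± 0.15, adjusted p = 0.10). SCD, the desaturase that makes oleate, was at 8.62, 8.77 and 8.60 in the triple combination and 9.15, 9.42 and 9.76 in filanesib plus dexamethasone. All 3 genes showed the arrays of the triple combination close together and below the other group. The difference of SCD was -0.78 ± 0.19 (adjusted p = 0.157), and -0.51 as the mean of its probe sets. The fatty acid desaturase FADS1 differed by -0.54 ± 0.17 (adjusted p = 0.374).

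Chaperones of the endoplasmic reticulum and genes of the unfolded protein response were negative in 9 of 10 measured members, 5 of them lower without overlap, with a median of -0.19 and 0 past the threshold. Of all 14884 genes 7771 were negative, and 7.36% were lower without overlap. In limma 4 of the 10 were lower at an unadjusted p under 0.05, against 479 of all 14884 genes. Calreticulin, CALR, was at 11.30, 11.31 and 11.14 in the triple combination and 11.44, 11.64 and 11.64 in filanesib plus dexamethasone (-0.32 ± 0.10, adjusted p = 0.375). SEL1L, the adaptor of the HRD1 degradation complex, differed by -0.30, the chaperone HYOU1 by -0.28 (-0.13 as the mean of its probe sets) and the stress sensor ATF6 by -0.26. The ATF4 and amino acid response was mixed, with 2 higher and 5 lower without overlap of 13 (6.17% and 7.36% of all genes) and a median of -0.16. The median was -0.11 without replicate 2 and -0.25 without replicate 3 of filanesib plus dexamethasone. PHGDH, the first enzyme of serine synthesis, was at 5.69, 5.66 and 5.54 in the triple combination and 6.02, 6.12 and 5.96 in filanesib plus dexamethasone (-0.40 ± 0.12, adjusted p = 0.336). The proline enzyme PYCR1 differed by -0.43 (-0.28 without replicate 2 of the triple combination) and the mitochondrial serine enzyme SHMT2 by -0.34, whereas the secreted hormone stanniocalcin 2, STC2, differed by 0.45 ± 0.14 (adjusted p = 0.352). None of the 13 passed in limma, where 1 was higher and 5 were lower at an unadjusted p under 0.05. Over all 14884 genes the counts were 463 and 479. Hypoxia and glycolysis genes had 1 higher and 2 lower without overlap of 11 (6.17% and 7.36% of all genes), with a median of -0.02. ANKRD37 was at -0.35 and the glucose kinase HK2 at -0.15 (-0.10 without replicate 2 of the triple combination). Of 11 measured genes of ribosome production, with a median of -0.06, 0 were higher and 1 was lower without overlap (6.17% and 7.36% of all genes). The lower gene was the ribosome assembly factor MRTO4 (-0.36, and -0.23 without replicate 3 of the triple combination). Omission of 1 array left the medians of both lists negative, at -0.039 to -0.015 and -0.113 to -0.029.

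The same drug was added in 3 other backgrounds, whose arrays are in neither group of the comparison above. They enter it through the estimate of the spread, the joint normalisation and the choice of a gene's probe set. The effect of pomalidomide could thus be set side by side in 4 disjoint sets of arrays. Of the 463 genes higher here at an unadjusted p under 0.05, 83.4% also had a positive difference for pomalidomide beside filanesib, 82.5% beside dexamethasone and 65.4% without other drugs. Over all genes the shares were 48%, 53.6% and 45.6%. The 463 genes were chosen on their values here, where their median was 0.39, and their medians elsewhere were 0.22, 0.18 and 0.08 in the same order. Of the 479 genes lower here, 75.2%, 72.7% and 71.8% were also negative, against 52%, 46.4% and 54.4% of all genes. Their median was -0.36 here and -0.15, -0.09 and -0.16 there. Across all 14884 genes, which are not independent, the difference here correlated with that beside filanesib at r = 0.40, beside dexamethasone at 0.349 and without other drugs at 0.226. The sets share the array type, the tumour line, the joint normalisation and the estimate of the spread behind the p-values.

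All 12 genes in the plot of levels, which were chosen on their values here, had the same sign in each of the other 3 backgrounds. The pomalidomide effect on IFI44 was 1.72 beside filanesib plus dexamethasone, 1.56 beside filanesib, 0.97 beside dexamethasone and 1.49 without other drugs. XAF1 had 1.5, 2.09, 1.19 and 1.5 in that order, and DOCK4 1.20, 1.02, 0.94 and 0.76. TOP6BL had -0.73, -0.56, -0.37 and -0.25. TOP6BL stepped down in size in this order, but no difference between these effects passed the limma test in any of the 4 genes. Without pomalidomide the level of IFI44 was alike in filanesib plus dexamethasone (3.66 ± 0.24, SD), filanesib (3.84 ± 0.16), dexamethasone (3.66 ± 0.10) and control (3.70 ± 0.10). LIX1L and EIF2AK4 had 0.69 and 0.80 beside filanesib plus dexamethasone, 0.60 and 0.56 beside filanesib, 0.17 and 0.27 beside dexamethasone, and 0.04 and 0.08 without other drugs. The differences between these effects did not pass for LIX1L (limma, adjusted p = 1 against dexamethasone and 0.382 against no other drugs) or EIF2AK4 (adjusted p = 1 and 0.419).

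**Figure D3:**
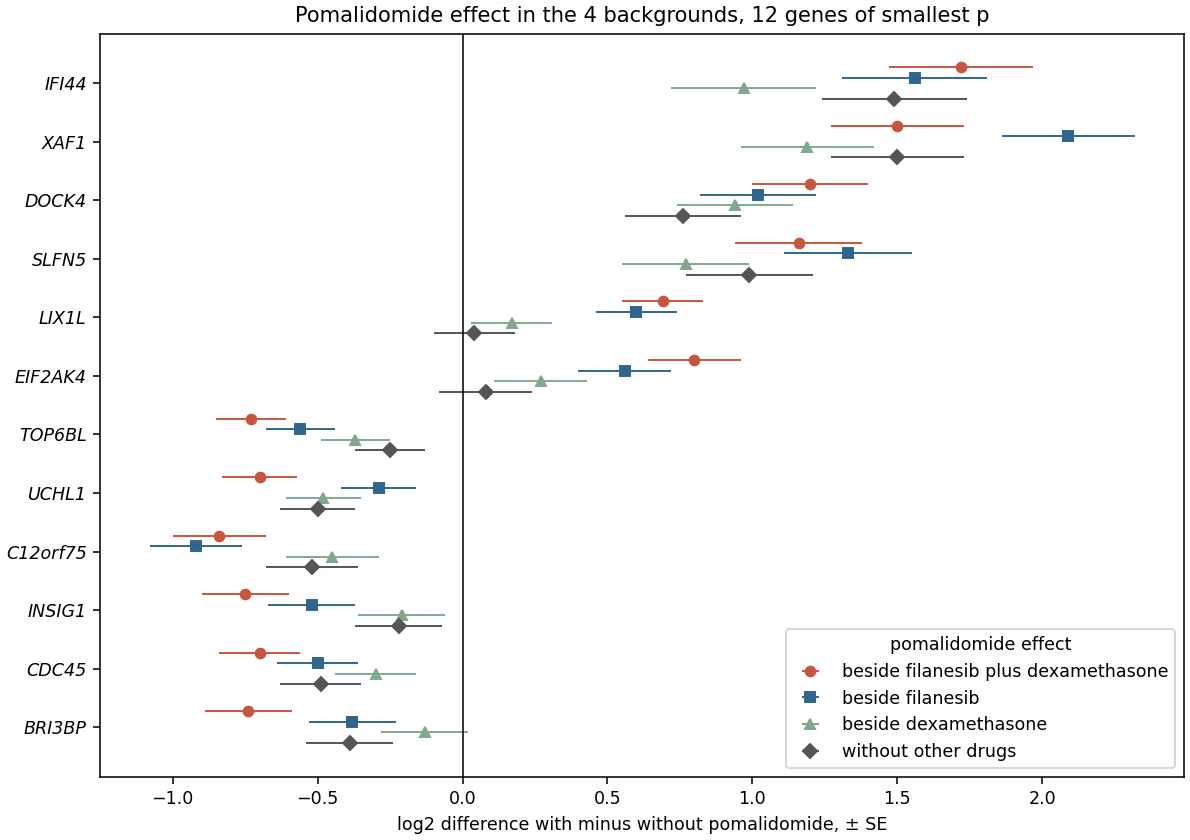
Log2 difference with minus without pomalidomide, ± SE of the model, for the 12 genes of smallest p in each of the 4 backgrounds (red circles beside filanesib plus dexamethasone, blue squares beside filanesib, green triangles beside dexamethasone, grey diamonds without other drugs). All 4 points of each gene lie on the same side of 0, and those of XAF1 run from 1.19 to 2.09.

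Set side by side by background, the median of the interferon-induced effectors was 0.50 beside filanesib plus dexamethasone, 0.55 beside filanesib, 0.40 beside dexamethasone and 0.47 without other drugs. That of DNA replication genes was -0.35, -0.32, -0.25 and -0.64 in the same order, and that of mitotic genes -0.01, -0.09, 0.01 and -0.33. The median of the mitotic genes thus lay between -0.09 and 0.01 wherever another drug was present. The median of ER chaperones was -0.19 beside filanesib plus dexamethasone, against -0.03 beside filanesib, 0.05 beside dexamethasone and -0.03 without other drugs, and 2 of the 10 genes had a higher difference here than beside dexamethasone. Cholesterol and fatty acid genes had -0.18, -0.15, 0.02 and -0.17. Glucocorticoid targets had 0.18, 0.14, -0.05 and -0.05. BCL2L11 had 0.57 and 0.53 in both backgrounds with filanesib, against -0.04 beside dexamethasone and -0.15 without other drugs. BMF had 0.51, 0.39, 0.45 and 0.24 in the order above. The effect on BCL2L11 here differed by 0.61 ± 0.30 from that beside dexamethasone and by 0.71 ± 0.30 from that without other drugs. Neither difference passed in limma.

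Whether the effect of pomalidomide differed from that in another background was tested as a difference of effects, with a median SE of 0.20. Against the effect beside dexamethasone 0 genes passed in limma and 427 had an unadjusted p under 0.05. Against the effect beside filanesib 0 passed and 576 had an unadjusted p under 0.05. The smallest adjusted p was 1 in both. The genes with the smallest p for the difference from the effect beside dexamethasone were ZNF534, a zinc finger gene (-0.73 ± 0.16), MINPP1, an inositol phosphate phosphatase (-0.74 ± 0.17), the microRNA gene MIR4453 (1.0 ± 0.23), CHST14, a dermatan sulfotransferase (-0.88 ± 0.22), and the heme exporter FLVCR1 (-0.68 ± 0.17). Those for the difference from the effect beside filanesib were RP9P (-0.89 ± 0.21), MIR4502 (1.01 ± 0.24), the dentin gene DSPP (0.71 ± 0.17), LSP1P5 (0.82 ± 0.21) and COL18A1-AS2 (-0.62 ± 0.16). The value of LSP1P5 was 0.26 as the mean of its probe sets. DDIT4 differed by 1.17 ± 0.41 from its effect beside dexamethasone, where pomalidomide gave -0.39, and SCD by -0.78 ± 0.27 from its effect there, which was 0.00. Neither passed.

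Against the effect without other drugs 4 genes passed (0.0269% of genes), all of them small RNA genes and all lower, and 1259 genes had an unadjusted p under 0.05. They were the small Cajal body RNAs SCARNA10, SCARNA12 and SCARNA6, which guide modification of spliceosomal RNA, and the microRNA gene MIR892A. SCARNA10 had a pomalidomide effect of -0.27 beside filanesib plus dexamethasone and 1.90 without other drugs, a difference of -2.16 ± 0.32 (limma adjusted p = 0.00941). Its level was 9.57, 9.55 and 9.34 in the triple combination, 10.02, 9.68 and 9.57 in filanesib plus dexamethasone, 10.59, 10.18 and 10.94 with pomalidomide alone, and 8.40, 9.14 and 8.49 in control. Control was the lowest group and pomalidomide alone the highest, and both groups with filanesib plus dexamethasone lay between them. None of the 4 passed between the triple combination and filanesib plus dexamethasone, where their differences were -0.27, -0.45, -0.72 and -0.29 in the order SCARNA10, SCARNA12, SCARNA6 and MIR892A. In the same order the pomalidomide effects beside filanesib were -0.35, -0.49, -0.93 and -0.08. Those beside dexamethasone were -0.24, -0.15, -0.70 and 0.04. The large positive effects were thus seen only without other drugs. The arrays of pomalidomide alone had the widest residual spread of the series. Without arrays 1 and 3 of that group 0 genes passed, with 958 at an unadjusted p under 0.05, but that fit leaves 1 array of pomalidomide alone, which is assumed to vary like the other groups, and SCARNA10 was at -1.77 in it. Also, 0 passed without control replicate 1 or without filanesib plus dexamethasone replicate 1. The fifth gene by p, VMP1, a membrane protein of autophagy, had -0.80 ± 0.16 and did not pass (adjusted p = 0.159).

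**Figure D4:**
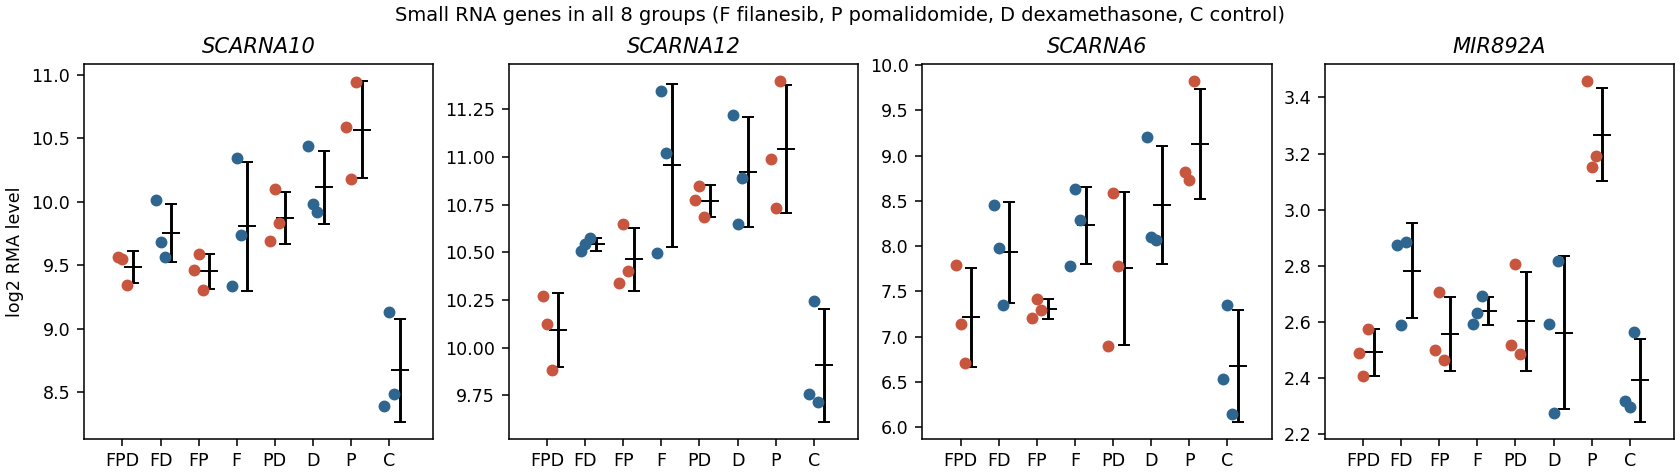
Log2 RMA levels of the 4 small RNA genes whose pomalidomide effect differed from that without other drugs, in the 3 arrays of each of the 8 groups with mean and SD, red where pomalidomide was given and blue where it was not (F filanesib, P pomalidomide, D dexamethasone, C control). By the mean, control is the lowest group in each gene and pomalidomide alone the highest, at 10.57 and 8.67 for SCARNA10 in P and C.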

How the data were processed

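Total RNA of the tumours was labelled with biotin and hybridised to an Affymetrix array, per the labels' protocols. The deposited values were log2 levels per probe set, which the authors made with Expression Console of Affymetrix and its RMA method, as the submitters' processing notes have it. No version is given in the sources used here. RMA gives every array the same distribution, and a shift common to most genes would be lost. Of 53617 probe sets, 16098 had 1 gene symbol in the platform's probe table and 37519 none, which were left out. For 779 genes with several probe sets the one with the highest mean over 24 arrays was used, which left 14884 genes, 11727 of them with a protein-coding accession. Genome positions were not used.

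Group means were estimated over the 24 arrays together with limma 3.58.1 in R 4.3.3 (16 residual degrees of freedom before moderation by eBayes), and the 2 groups were compared within it, with Benjamini-Hochberg adjustment over all genes and a threshold of 0.05. Differences between pomalidomide effects were contrasts of 4 groups in the same fit. No filter on low values was applied. The scripts were tested on simulated data. The precision is limited by 3 arrays per group. The members of 20 pathway lists and 11 marker lists, and the genes named singly, were chosen with earlier results of these data known. Named were the 6 genes of smallest p in each direction, up to 4 members of each pathway list with the smallest p, 5 genes for each difference of effects, and a short series of drug targets and marker genes. Not every gene that the rule allows is printed.

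Replicate numbers did not pair the samples: deviations of same-numbered arrays of the compared groups correlated at -0.14, -0.0222 and -0.108. Alternatives comprised a further quantile normalisation, median centring, array weights, omission of dim genes, the replicate number as a block, every probe set, a robust prior with a trend, a change of 1.5-fold or more, the mean of a gene's probe sets, protein-coding genes only, the compared groups only, omission of each array, and omission of arrays 1 and 3 of pomalidomide alone. Figures were drawn with matplotlib 3.10.9 in Python 3.11.15.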

Additional observations from a re-analysis of the deposited data

Results flagged for a closer look

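The effect of pomalidomide on 4 small RNA genes differed between tumours given filanesib plus dexamethasone and tumours given no other drug, by the test of the difference in limma. The values were -2.16 ± 0.32 for SCARNA10 (adjusted p = 0.00941), -1.17 ± 0.19 for MIR892A (adjusted p = 0.021), -1.58 ± 0.27 for SCARNA12 (adjusted p = 0.0308) and -3.16 ± 0.57 for SCARNA6 (adjusted p = 0.0409). For SCARNA6 the pomalidomide effect was -0.72 beside filanesib plus dexamethasone and 2.44 without other drugs. The difference was not particular to filanesib plus dexamethasone. Beside filanesib the effect was -0.35 for SCARNA10, -0.08 for MIR892A, -0.49 for SCARNA12 and -0.93 for SCARNA6. Beside dexamethasone it was -0.24, 0.04, -0.15 and -0.70 in the same order. None of the 4 genes passed for the difference from either of these effects. MIR892A, a microRNA gene near the bottom of the scale, was at 2.49, 2.41 and 2.58 in the triple combination, 2.87, 2.59 and 2.89 in filanesib plus dexamethasone, 3.46, 3.15 and 3.19 with pomalidomide alone, and 2.32, 2.30 and 2.56 in control. All 4 calls were lost without arrays 1 and 3 of pomalidomide alone (adjusted p from 0.258 to 0.375), where the values were -1.77 for SCARNA10, -1.05 for MIR892A, -1.27 for SCARNA12 and -2.77 for SCARNA6 and 1 array of pomalidomide alone was assumed to vary like the other groups. They were also lost without control replicate 1 (0.0659 to 0.18) and without replicate 1 of filanesib plus dexamethasone (0.0638 to 0.181). The part of the wide spread of the pomalidomide arrays in these values was not tested.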

How the results depend on the processing

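Of 84 genes whose difference between the triple combination and filanesib plus dexamethasone was recomputed under the alternatives, 79 kept their sign in every one. The exceptions were genes near 0: omission of single arrays gave -0.047 to 0.049 for MYC, -0.218 to 0.06 for KIF11, -0.031 to 0.117 for CDC20, -0.037 to 0.146 for BUB1 and -0.169 to 0.103 for CCNB1, which was also 0.006 with array weights. The count of 4 changed genes was 134 with array weights (74 higher, 60 lower), 0 with every probe set, 14 with protein-coding genes only, 12 without arrays 1 and 3 of pomalidomide alone, and 0 to 10 in omissions of single arrays. The cause of these shifts was not tested. With the replicate number as a block it was 6, and the block changed none of the 4 calls, although the numbers do not pair the samples (0 of 3 arrays correlated best with their own number). Against the effect beside dexamethasone and beside filanesib, 0 genes passed in all alternatives except that each gave 1 without dexamethasone replicate 3 (range 0 to 1). Against the effect without other drugs the count of 4 was 2 with the replicate block, 10 with every probe set, 0 with protein-coding genes only, 2 in a fit to those groups alone, 0 without arrays 1 and 3 of pomalidomide alone, and 0 to 7 in omissions of single arrays. Of the 4 small RNA calls themselves 2 were lost with the replicate block, 2 with every probe set and 3 in the fit to those groups alone, so the counts with every probe set and in that fit include other genes, and the 4 small RNA genes are not tested among protein-coding genes.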
